A study of Mus musculus with 15 samples.

Results

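Asb proteins carry a run of ankyrin repeats, which bind a substrate, and a SOCS box, which binds Elongin B and Elongin C and through them cullin 5 and the RING protein Rnf7. The assembled complex is a ubiquitin ligase, and each Asb protein is the part that decides which protein is tagged. Nedd8, attached to cullin 5 by Ube2f and Rnf7, switches the ligase on. Several Asb genes are known for expression in striated muscle, where ubiquitin ligases set the turnover of sarcomeric and cytoskeletal proteins.

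The 9 genes described here are Asb2, Asb5, Asb8, Asb10, Asb11, Asb12, Asb14, Asb15 and Asb18, taken by gene name from a table of 54532 genes, together with their FPKM (fragments per kilobase of gene, scaled to library size) in all 15 libraries. The genes were chosen by name with their FPKM in the 5 groups already known from earlier results, so their levels, differences and calls in all 7 comparisons below are description and support nothing, and no gene of the 9 is given a p-value. All 9 passed the filter on low values (at least 0.5 FPKM in at least 3 libraries), which left 15321 genes. Asb2, Asb5, Asb8, Asb11 and Asb12 reached 0.5 FPKM in all 15 libraries, Asb10 in 14, Asb14 in 13, Asb18 in 12 and Asb15 in 11. On GRCm38 the table places Asb2 (ENSMUSG00000021200) at chr12:103321142-103356001 on the minus strand, Asb5 (ENSMUSG00000031519) at chr8:54529580-54587842 on the plus strand and Asb8 (ENSMUSG00000048175) at chr15:98134637-98165625 on the minus strand. Asb10 (ENSMUSG00000038204) lies at chr5:24532697-24540978 on the minus strand, Asb11 (ENSMUSG00000031382) at chrX:164436994-164459170 on the plus strand and Asb12 (ENSMUSG00000031204) at chrX:95470201-95557987 on the minus strand. Asb14 (ENSMUSG00000021898) lies at chr14:26894557-26915258 on the plus strand, Asb15 (ENSMUSG00000029685) at chr6:24528144-24573164 on the plus strand and Asb18 (ENSMUSG00000067081) at chr1:89950220-90014666 on the minus strand.

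The libraries came from whole mouse hearts, 3 per group, described by the submitters as independent biological replicates. Each pup received an AAV9 vector under the skin on day 1 after birth, with a cTnT (cardiac troponin T) promoter, active in heart muscle cells, driving the cargo, and the heart was taken 12 to 14 days later. The floxed control (ff_GFP) had the genotype Nat10flox/flox and received GFP. The other groups had the genotype Nat10-CKO, a conditional knockout whose Cre driver the labels do not name, and received equal amounts of vector for GFP (CKO_GFP), NAT10 (CKO_NAT10), NAT10 G641E (CKO_G641E) or NAT10 K209A (CKO_K209A). NAT10 is an RNA acetyltransferase with an RNA helicase module. G641E and K209A are single amino acid substitutions, and the labels do not say which activity each one alters. The design asks what loss of Nat10 does in the young heart and what each form of NAT10 gives back.

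Reads assigned to genes ran from 13218352 to 15912700 per library, and mitochondrial genes took 12.2% to 19.2% of them. Nat10 itself read 3.87 to 4.28 FPKM in the floxed control, 3.43 to 3.53 in the GFP knockout, 2.05 to 2.92 with NAT10, 2.20 to 2.58 with G641E and 3.24 to 3.82 with K209A, so gene-level reads showed neither a near-complete loss in the knockout nor a gain from the NAT10 vectors. Which exons are deleted, and whether vector transcripts count towards the mouse gene, are not given in the sources used here, so Nat10 checks neither the deletion nor the vectors. On the second principal component of all genes tested, replicate 1 of CKO_GFP lay at -43.8, while the other 14 libraries lay between -27.4 and 20.0. The 10 markers of heart muscle cells summed to 25425 to 27232 FPKM in the floxed control, 19673 to 23663 with NAT10 and 21437 to 24628 with G641E, and to 11296 to 16033 in CKO_GFP and 9578 to 11932 with K209A. In whole hearts, fewer heart muscle cells and less RNA per cell cannot be told apart. Of 16 markers of skeletal muscle, Myog and Pax7 were at 0 in all 15 libraries and 4 passed the filter.

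The start regions of 5 of the genes are shown first, because none of 7 preset patterns was found in all the genes that were low in the knockout. RefSeq gave 13 start windows for the 9 genes on GRCm38.p6, each running from 250 bases before to 50 bases after an annotated start. Every window was searched on both strands for 7 muscle or core promoter patterns, and matches are in capitals. The Asb15 window is chr6:24527894-24528193 on the plus strand, the first Asb2 window chr12:103355952-103356251 on the minus strand, and the Asb18 window chr1:90014617-90014916 on the minus strand. The Asb12 window is chrX:95478080-95478379 on the minus strand and the Asb11 window chrX:164436744-164437043 on the plus strand.
Asb15: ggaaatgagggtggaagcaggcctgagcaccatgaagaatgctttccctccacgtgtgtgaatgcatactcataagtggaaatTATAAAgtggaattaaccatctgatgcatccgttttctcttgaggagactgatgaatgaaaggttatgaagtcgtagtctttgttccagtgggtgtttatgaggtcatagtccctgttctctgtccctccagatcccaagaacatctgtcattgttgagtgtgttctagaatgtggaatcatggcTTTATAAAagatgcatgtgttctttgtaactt
Asb2: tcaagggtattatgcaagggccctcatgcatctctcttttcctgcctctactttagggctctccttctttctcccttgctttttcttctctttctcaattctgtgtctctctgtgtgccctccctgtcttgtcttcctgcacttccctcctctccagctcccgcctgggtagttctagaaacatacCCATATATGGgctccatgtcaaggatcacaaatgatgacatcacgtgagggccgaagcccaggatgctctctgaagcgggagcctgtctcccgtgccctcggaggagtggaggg
Asb18: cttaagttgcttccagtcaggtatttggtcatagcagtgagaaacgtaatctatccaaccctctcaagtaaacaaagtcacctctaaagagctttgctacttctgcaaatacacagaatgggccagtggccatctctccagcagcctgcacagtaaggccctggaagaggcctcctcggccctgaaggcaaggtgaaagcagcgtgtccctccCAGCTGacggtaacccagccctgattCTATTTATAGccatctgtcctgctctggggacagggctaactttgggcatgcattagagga
Asb12: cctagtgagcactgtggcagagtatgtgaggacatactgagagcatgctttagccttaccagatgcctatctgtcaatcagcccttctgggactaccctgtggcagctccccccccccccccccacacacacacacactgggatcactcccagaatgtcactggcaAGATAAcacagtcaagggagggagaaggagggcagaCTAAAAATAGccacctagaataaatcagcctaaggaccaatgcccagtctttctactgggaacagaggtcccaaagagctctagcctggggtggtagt
Asb11: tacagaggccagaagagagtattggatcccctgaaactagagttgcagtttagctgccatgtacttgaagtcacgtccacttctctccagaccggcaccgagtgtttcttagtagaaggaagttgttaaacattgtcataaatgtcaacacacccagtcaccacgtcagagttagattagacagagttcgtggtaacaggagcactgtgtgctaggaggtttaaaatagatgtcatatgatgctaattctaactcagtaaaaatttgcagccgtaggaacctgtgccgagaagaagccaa

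Positions count from the RefSeq start of each window, which is not always the gene start of the table. The start lay 79858 bases inside the gene for Asb12 and 20751 for the Asb5 window with matches. It lay 17611 bases inside for the second Asb2 window, with the E-box, and 19923 for the second Asb8 window, with the MCAT match. A MEF2 box was found in Asb12 at position -48 and in Asb18 at position -11, where it overlaps a TATA match, and in 0.557% of all 32851 windows. A CArG box, the pattern read by serum response factor, was found in Asb2 at position -64 and in Asb5 at position -211, and in 1.63% of all windows. The E-box letters CAGCTG were found in Asb2, Asb5 and Asb18 (16.3% of all windows), the MCAT letters CATTCC in Asb8 and Asb10 (14.7%), and the GATA letters AGATAA in Asb12 and Asb14 (11.2%). TATAAA was found in Asb5, Asb14, Asb15 and Asb18 (13.6%), and the estrogen-related receptor letters AAGGTCA in none of the 9 genes (4.72%). The Asb15 matches lay at positions -167, 18 and 20. The match at -167 lies inside the neighbouring gene Ndufa5, which is 131 bases from the Asb15 start, and the others lie after the start. Asb15, the gene with the lowest knockout level, held only TATAAA matches, and Asb11, the gene that was not low in the knockout, held none of the 7 patterns. The first Asb8 window and the later Asb5 windows also held none, and both genes were low in the knockout. The share of all windows that held none of the 7 patterns was not counted, so nothing is read from an absence. A match is a run of letters and does not show a bound site.

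In the floxed control heart the 9 genes together reached 338 ± 17.4 FPKM (SD, n = 3), and Asb2 alone made up 57.0% to 60.6% of that. By mean level the order was Asb2 (198 FPKM), Asb8 (40.9), Asb10 (28.0), Asb11 (20.9), Asb14 (16.0), Asb15 (13.3), Asb5 (9.38), Asb12 (5.78) and Asb18 (5.47). Within that order only Asb12 and Asb18 overlapped across the libraries. The sum was 136 ± 16.5 FPKM in CKO_GFP and 128 ± 10.5 in CKO_K209A, against 253 ± 27.9 with NAT10 and 237 ± 16.7 with G641E. The sum is mostly Asb2 and says little of the genes at low levels.

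**Figure D1:**
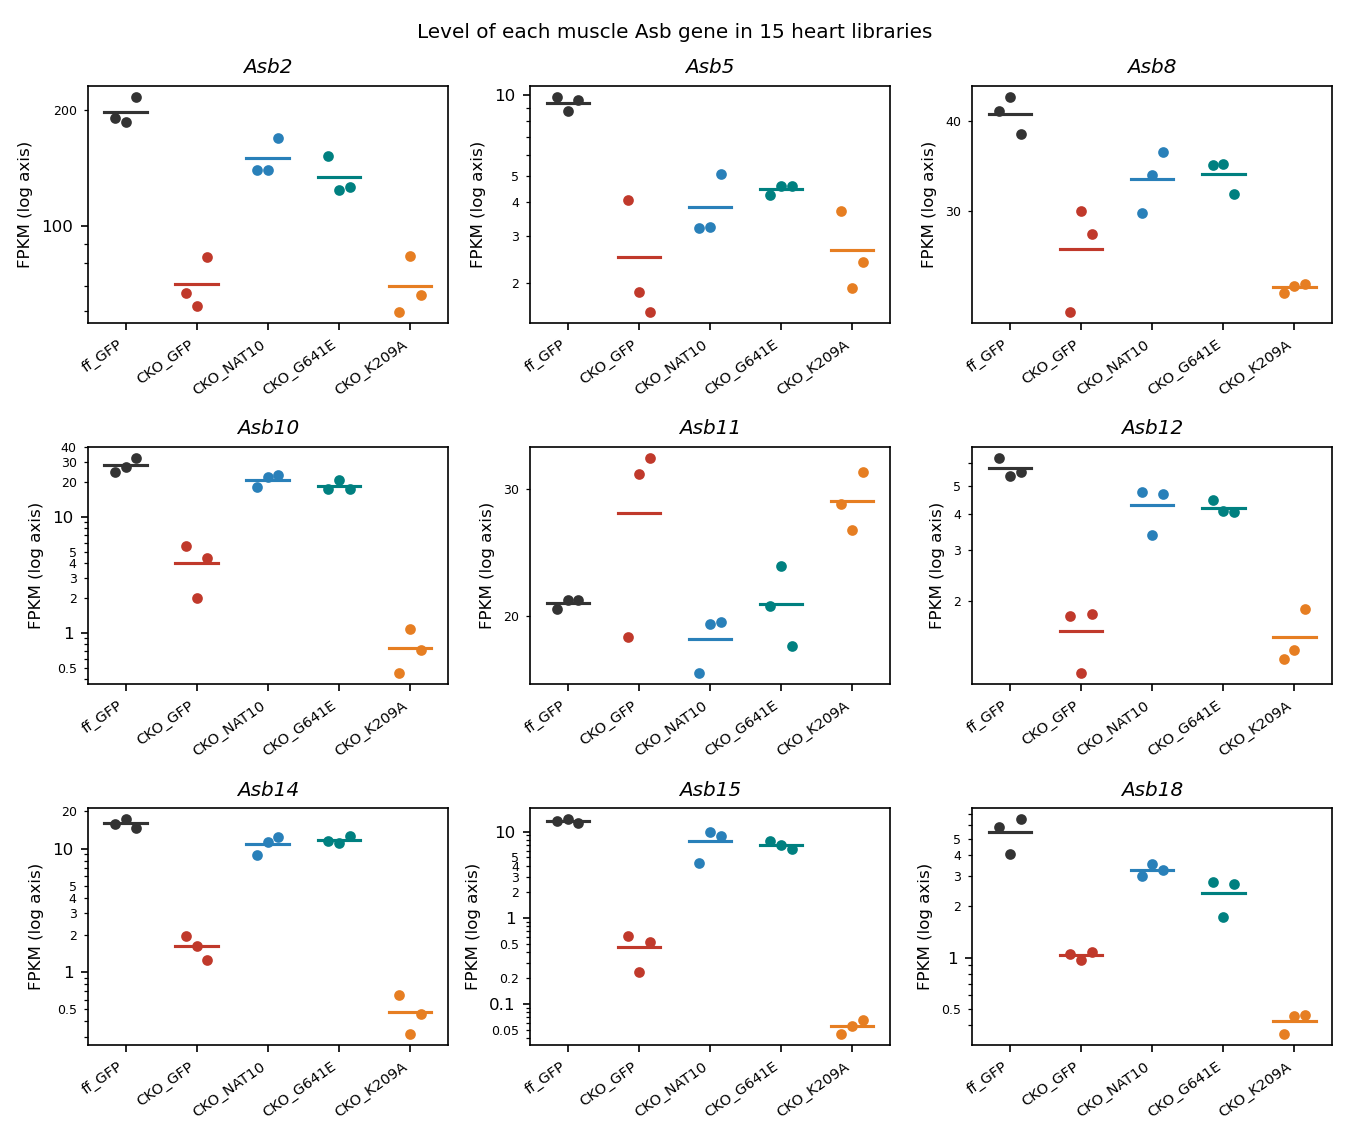
FPKM of each gene on a log axis (scales differ between panels) in the 15 libraries, 3 points per group in replicate order, with a line at the group mean. Asb15 drops from 13.3 FPKM in ff_GFP to 0.456 in CKO_GFP and 0.0549 in CKO_K209A, while Asb11 is highest in CKO_GFP and CKO_K209A.

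Asb2 is the best studied of the family and is known to direct filamins, and in muscle desmin, to degradation. It read 191, 187 and 217 FPKM in the floxed control and 67.1, 62.0 and 82.9 in CKO_GFP, a ratio of means of 2.80. The fitted difference was -1.49 ± 0.14 (log2 of FPKM + 0.5, ± SE), and no CKO_GFP library came near a floxed one. With NAT10 it read 140.1, 140.2 and 170.1 FPKM, and with G641E 152, 124 and 127. Both groups lay between the knockout and the floxed control, overlapped each other and overlapped neither. With K209A it read 59.7, 83.6 and 66.3 FPKM, overlapping CKO_GFP. Asb2 has 2 coding transcripts in GENCODE, which gene-level FPKM does not separate.

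Asb15, studied mainly in skeletal muscle growth, showed the widest range of the 9. It read 13.2, 14.0 and 12.7 FPKM in the floxed control and 0.616, 0.232 and 0.520 in CKO_GFP, which is 29.2-fold lower by the means. On the log2 scale with its added 0.5 FPKM the difference was -3.87 ± 0.23, the 7th lowest of 15321 genes, and that scale understates ratios of genes this low. NAT10 libraries read 4.33, 9.78 and 8.90 FPKM and G641E libraries 7.78, 6.98 and 6.21, all above every CKO_GFP library and below every floxed one. K209A libraries read 0.0446, 0.0550 and 0.0653 FPKM, which were 3, 4 and 5 reads. Those 12 reads stood against 93 in CKO_GFP, a ratio of 8.44 (exact 95% interval 4.61 to 16.9), and against 2467 in the floxed control, a ratio of 240.1 (137 to 465). The intervals cover counting error only.

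Asb14 and Asb10 likewise had their lowest level with K209A, below CKO_GFP. Asb14, for which few substrates are known, read 15.7, 17.4 and 14.8 FPKM in the floxed control, 1.95, 1.64 and 1.26 in CKO_GFP, and 0.655, 0.315 and 0.461 in CKO_K209A. The CKO_GFP mean was 9.88-fold below the floxed mean, the fitted difference was -2.97 ± 0.16, and the 3 groups did not overlap. NAT10 libraries read 8.95, 11.3 and 12.5 FPKM and G641E libraries 11.5, 11.0 and 12.7. Asb10, which in humans has been studied for a link to glaucoma, read 24.4, 27.1 and 32.4 FPKM in the floxed control, 5.65, 2.02 and 4.43 in CKO_GFP, and 0.452, 1.08 and 0.711 in CKO_K209A. It stood at 18.0, 21.9 and 23.1 FPKM with NAT10 and at 17.6, 20.7 and 17.4 with G641E. The floxed to CKO_GFP ratio of Asb10 was 6.93 and the fitted difference -2.73 ± 0.27. Again no library of CKO_GFP reached a NAT10 or G641E library.

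Asb18 and Asb12 were the lowest of the 9 in the floxed control, and they differed in whether K209A lay below CKO_GFP. Asb18 read 5.81, 4.06 and 6.53 FPKM in the floxed control, 1.05, 0.963 and 1.08 in CKO_GFP, and 0.355, 0.454 and 0.461 in CKO_K209A. Values with NAT10 were 3.00, 3.55 and 3.26 FPKM, and with G641E 2.77, 1.73 and 2.69. Asb18 was the one gene of the 9 whose NAT10 and G641E libraries did not overlap, with a fitted difference of -0.40 ± 0.17 for G641E minus NAT10. Asb12 read 6.27, 5.43 and 5.62 FPKM in the floxed control, 1.78, 1.12 and 1.80 in CKO_GFP, and 1.26, 1.36 and 1.88 in CKO_K209A, so that the last 2 groups overlapped. With NAT10 it read 4.77, 3.39 and 4.70 FPKM and with G641E 4.47, 4.12 and 4.05. The knockout differences were -1.94 ± 0.17 for Asb18 and -1.62 ± 0.16 for Asb12.

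Apart from Asb11, Asb5 and Asb8 were the genes whose NAT10 and CKO_GFP libraries overlapped. Asb5, first described in growing collateral arteries of the rabbit, read 9.87, 8.71 and 9.57 FPKM in the floxed control and 4.07, 1.86 and 1.56 in CKO_GFP, where replicate 1 was the high one. With NAT10 it read 3.20, 3.24 and 5.11 FPKM, with G641E 4.26, 4.59 and 4.61, and with K209A 3.70, 1.91 and 2.39. Only the G641E group lay wholly above CKO_GFP in deposited FPKM. On read sums it did not. Replicate 1 of CKO_G641E had 109 of 14294544 reads, a smaller share than the 119 of 14722023 in replicate 1 of CKO_GFP. The NAT10 minus CKO_GFP difference was 0.60 ± 0.27 and became 0.95 without replicate 1 of CKO_GFP. Asb5 shares 75 exon bases, 4.07% of its length, with Spcs3 on the opposite strand, and the strand setting of the counting is not given in the sources used here. Spcs3 read 12.1 ± 0.974 FPKM in the floxed control and 26.6 ± 4.90 in CKO_GFP (SD, n = 3), the opposite direction to Asb5.

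Asb8 had the smallest of the 8 knockout differences. It read 41.3, 43.2 and 38.3 FPKM in the floxed control and 21.7, 30.0 and 27.9 in CKO_GFP, a ratio of means of 1.54 and a fitted difference of -0.63 ± 0.11. NAT10 hearts had 29.8, 33.7 and 36.2 FPKM and G641E hearts 34.8, 34.8 and 31.7, and the lowest NAT10 library lay just under the highest CKO_GFP library. With K209A it read 23.1, 23.7 and 23.8 FPKM, inside the CKO_GFP range.

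Asb11, an adaptor anchored in the endoplasmic reticulum that is known to target the pro-apoptotic protein Bik, did not follow the other 8. It read 20.5, 21.1 and 21.1 FPKM in the floxed control and 18.7, 31.5 and 33.2 in CKO_GFP, so replicate 1 lay below the floxed libraries and the other two above them. The fitted difference was 0.36 ± 0.17, and 0.62 without replicate 1. It read 16.7, 19.5 and 19.7 FPKM with NAT10, 20.7, 23.5 and 18.2 with G641E and 28.6, 26.4 and 31.7 with K209A. The K209A libraries lay above every floxed, NAT10 and G641E library. Asb11 made up 5.88% to 6.44% of the summed FPKM of the 9 in the floxed control, 15.3% to 24.0% in CKO_GFP and 19.0% to 24.8% in CKO_K209A.

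**Figure D2:**
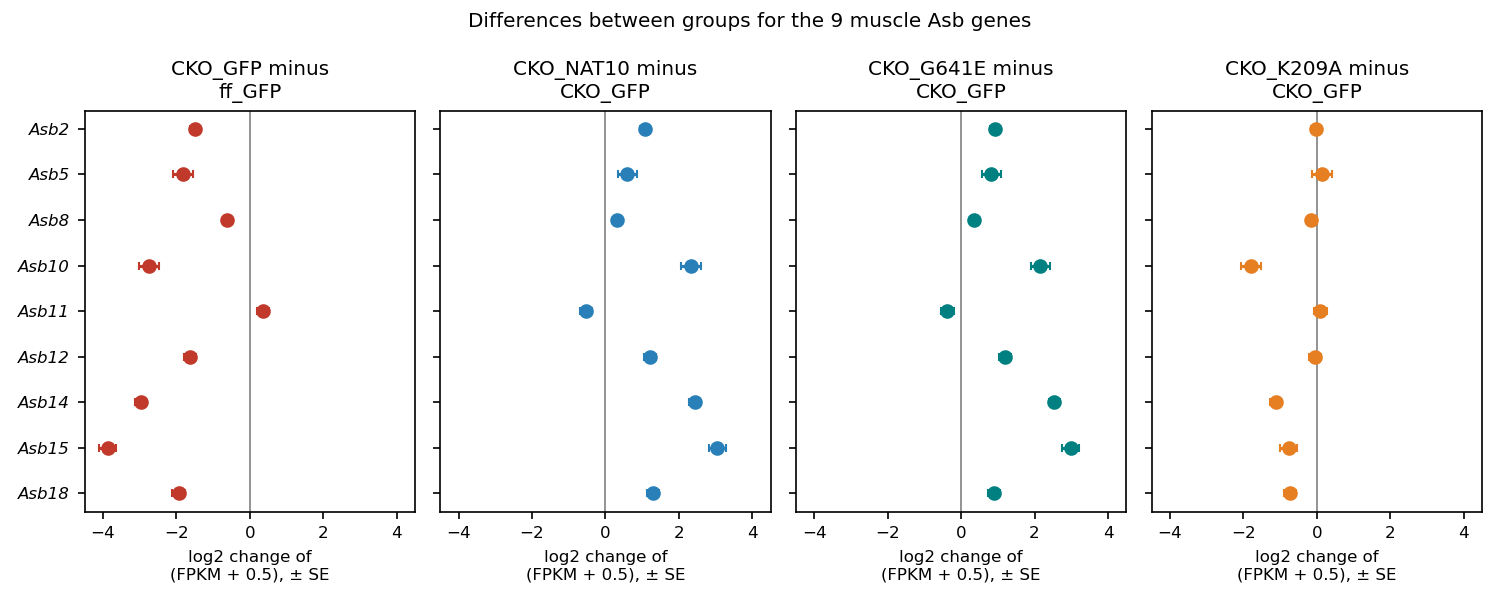
Fitted log2 differences of FPKM + 0.5 (points) with their standard errors (bars) for the 9 genes in 4 comparisons that share the CKO_GFP libraries. In the first panel 8 points lie below 0 and Asb11 lies at 0.36, and in the last panel Asb10 at -1.80 and Asb14 at -1.12 lie farthest from 0.

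Under limma's moderated test with Benjamini-Hochberg adjustment over all 15321 genes (called where adjusted p is under 0.05), 8 of the 9 genes were called lower in CKO_GFP than in the floxed control and Asb11 was not called. Of all genes tested, 40.5% were called in that comparison. Groups did not overlap for the same 8 genes, and for 46.5% of all genes tested. The median difference of the 9 was -1.81, while the median of all genes tested was at 0. Asb15, Asb14 and Asb10 lay at or below -2 on the log2 scale, as did 0.907% of all genes tested.

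With NAT10, 7 of the 9 genes were called higher than in CKO_GFP, Asb11 was called lower and Asb5 was not called, where 31.2% of all genes were called. Libraries did not overlap for 6 of the 9 and for 38.9% of all genes. The differences ran from 0.33 ± 0.11 for Asb8 to 3.04 ± 0.23 for Asb15, with Asb11 at -0.52 ± 0.17. The call of Asb8 was lost in 5 of 15 alternative settings and that of Asb11 in 8.

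With G641E, 8 of the 9 were called higher than in CKO_GFP and Asb11 was not called, where 31.3% of all genes were called. Libraries did not overlap in deposited FPKM for those 8 and for 39.9% of all genes, but on read sums Asb5 did overlap. The differences ran from 0.35 ± 0.11 for Asb8 to 2.99 ± 0.23 for Asb15. The call of Asb5 was lost in 7 of 15 alternative settings and that of Asb8 in 4. Compared directly, G641E and NAT10 hearts gave 0 calls among the 9 genes with limma (1 at an unadjusted p under 0.05, and 0 with limma-voom on the recovered reads), where 0.0522% of all genes were called. Libraries of these 2 groups did not overlap for Asb18 among the 9, and for 15.4% of all genes. The differences lay between -0.40 ± 0.17 for Asb18 and 0.22 ± 0.27 for Asb5, and a p that misses the threshold does not show that the groups were alike.

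With K209A none of the 9 genes was called higher than in CKO_GFP. Asb10 (-1.80 ± 0.27), Asb14 (-1.12 ± 0.16) and Asb18 (-0.73 ± 0.17) were called lower, where 7.93% of all genes were called in either direction. All 3 calls were lost when these 2 groups were fitted without the others, and that of Asb18 was lost in 5 of 15 alternative settings, among them limma-voom and leaving out replicate 3 of CKO_GFP or replicate 1 or 2 of CKO_K209A. Libraries did not overlap for these 3 and Asb15, and for 23.2% of all genes. Asb15 was 8.31-fold lower by the means, with a fitted difference of -0.76 ± 0.23 that was not called, and the value depended on the scale. It was -1.77 and called with 0.1 FPKM added before the logarithm, -0.94 and called without replicate 2 of CKO_GFP, and -2.70 and not called with limma-voom. Asb8 differed by -0.16 ± 0.11 and was not called, but was called lower, at -0.29, without replicate 1 of CKO_GFP. Asb2, Asb5, Asb11 and Asb12 differed by at most 0.13 in either direction, against standard errors of 0.14 to 0.27.

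Set against NAT10 hearts, K209A hearts were called lower for 7 of the 9 genes and higher for Asb11, with Asb5 not called, where 41.5% of all genes were called. Libraries did not overlap for 8 of the 9 and for 54.4% of all genes. Asb10 differed by -4.13 ± 0.27 and was the 5th lowest of all genes tested. Asb15 differed by -3.81 ± 0.23, Asb14 by -3.55 ± 0.16 and Asb18 by -2.03 ± 0.17.

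NAT10 hearts were also compared with the floxed control. For all 9 genes every NAT10 library lay below every floxed library in deposited FPKM. Libraries did not overlap, in either direction, for 25.4% of all genes. The library size behind the FPKM was 0.908 to 0.933 times the read sum in the floxed control and 0.979 to 1.04 times with NAT10. That scaling places the floxed libraries higher than read sums would. On read sums Asb10 and Asb11 did not stay apart. Asb10 had 840 of 13218352 reads in NAT10 replicate 3, a larger share than the 946 of 15196702 in floxed replicate 1. Asb11 had 793 of 14226319 reads in NAT10 replicate 2, a larger share than the 805 of 15196702 in floxed replicate 1. Asb11 was higher in CKO_GFP than in the floxed control by its mean. For it the NAT10 libraries therefore lay beyond the floxed level rather than short of it in deposited FPKM, but not on read sums. By the test, Asb5 was called lower (-1.21 ± 0.27) and the other 8 were not, where 2.47% of all genes were called. The Asb5 call was lost in 7 of 15 alternative settings. The other differences lay between -0.16 ± 0.17 for Asb11 and -0.83 ± 0.23 for Asb15. The floxed and NAT10 groups differ in genotype and in vector cargo together.

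The genes differed in how far along the log2 gap between CKO_GFP and the floxed control they stood. NAT10 hearts stood at 85.3% of the gap for Asb10, 81.9% for Asb14, 78.5% for Asb15, 75.1% for Asb12, 73.0% for Asb2, 66.9% for Asb18, 52.1% for Asb8 and 33.2% for Asb5. G641E hearts stood at 79.0% for Asb10, 85.6% for Asb14, 77.1% for Asb15, 74.5% for Asb12, 62.4% for Asb2, 46.4% for Asb18, 56.4% for Asb8 and 45.6% for Asb5. As a share of the floxed mean FPKM the order was another: with NAT10, Asb8 read 81.2%, Asb2 75.8%, Asb10 75.1%, Asb12 74.2%, Asb14 68.4%, Asb18 59.8%, Asb15 57.6% and Asb5 41.0%. K209A hearts stood at -65.7% for Asb10, -37.8% for Asb18, -37.6% for Asb14, -25.3% for Asb8 and -19.7% for Asb15, which is past the CKO_GFP mean. They stood within 8% of the CKO_GFP mean for Asb2 (-1.27%), Asb12 (-2.77%) and Asb5 (7.29%). These shares depend on the added 0.5 FPKM and on the size of each gap, so they do not rank the drops. By the means, K209A hearts read 0.886 of the CKO_GFP level for Asb8 and 0.120 of it for Asb15.

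**Figure D3:**
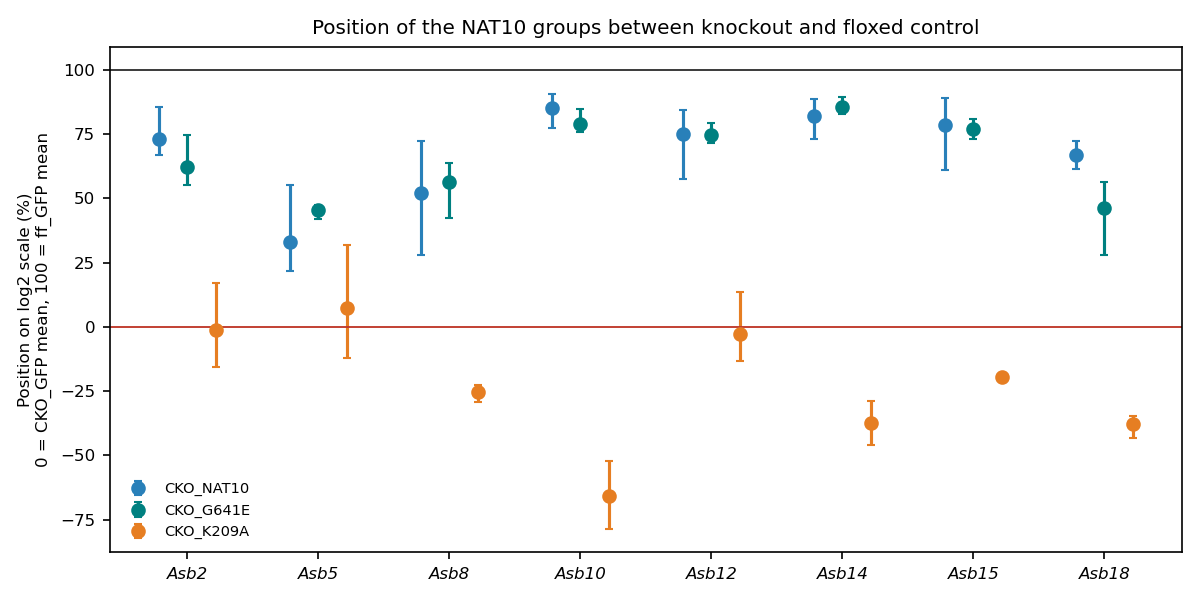
Position of each group on a log2 scale set at 0% for the mean of CKO_GFP and at 100% for that of ff_GFP, for 8 genes, as the mean (point) and the range of 3 libraries (bar). Asb11 is left out because its gap is small and of the other sign. The CKO_K209A ranges of Asb8, Asb10, Asb14, Asb15 and Asb18 lie wholly below 0%.

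The profiles across the 15 libraries sorted the 9 genes. The likeness used is the root mean square difference of log2(FPKM + 0.5) after centring each gene, so a smaller value means a closer profile. The closest pair was Asb2 and Asb12 at 0.211, followed by Asb14 and Asb15 at 0.381 and Asb2 and Asb8 at 0.382. The farthest pair was Asb11 and Asb15 at 2.10. Because the 9 genes were chosen with these values known, the distances are description.

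Among all protein-coding genes tested, those nearest to Asb15 were Art1, an ADP-ribosyltransferase of muscle, at 0.264, Fbp2, the muscle fructose bisphosphatase, at 0.320 and Rtn4r at 0.361. Nearest to Asb10 were the retinoid receptor Rxrg (0.236), the hemojuvelin gene Hfe2 (0.306) and Dhrs7c (0.324). Nearest to Asb14 were Hfe2 (0.278), the muscle enolase Eno3 (0.286) and Lsmem1 (0.301). Asb2 was nearest to Nhsl1 (0.142), Anks1 (0.142) and the fatty acid activating enzyme Acsl1 (0.150), and Asb12 to Dele1 (0.154), Tmem94 (0.158) and citrate synthase, Cs (0.163). Asb8 was nearest to the ATP synthase subunit Atp5c1 (0.0538), the mitochondrial fusion gene Mfn1 (0.0647) and Mcur1 (0.0659). Asb18 was nearest to Grb14 (0.218), Dnaaf3 (0.219) and Crhr2 (0.228), and Asb5 to Slc22a3 (0.335), Slc35g2 (0.342) and Hsd17b7 (0.344). Asb11 was nearest to Wls (0.114), Acp1 (0.118) and Abca6 (0.126), each higher in CKO_GFP than in the floxed control by its mean. Genes that vary little lie close to many others, so these values compare within one gene and not between them.

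The nearest tested protein-coding genes on either side that do not overlap the gene were read beside each gene. Spcs3, which overlaps Asb5, is therefore not among these neighbours. Ndufa5, a complex I subunit, starts 131 bases from Asb15 on the opposite strand and fell from 219 ± 4.21 to 151 ± 11.1 FPKM in CKO_GFP (-0.54, adjusted p = 6.06e-05), a ratio far smaller than the 29.2 of Asb15. Pfkm, the muscle phosphofructokinase, lies 2186 bases from Asb8 and fell from 295 ± 25.4 to 87.2 ± 18.1 FPKM (-1.77, adjusted p = 8.19e-07), a larger drop than that of Asb8. Ccdc184, 1533 bases from Asb8 on the other side, fell by 0.94 on the log2 scale (adjusted p = 0.00141). Appl1, 3730 bases from Asb14, rose by 0.27 (adjusted p = 0.0251), against the direction of Asb14. Agap3 and Abcf2, 30650 and 24367 bases from Asb10, differed by 0.24 (adjusted p = 0.110) and 0.21 (adjusted p = 0.0832). Btbd7 and Otub2, 442671 and 32681 bases from Asb2, differed by -0.10 (adjusted p = 0.434) and 0.24 (adjusted p = 0.325). Piga, 3078 bases from Asb11, differed by 0.15 (adjusted p = 0.492). Gpm6a, 367001 bases from Asb5, rose by 0.73 (adjusted p = 0.0186). Pde12, 224674 bases from Asb14, rose by 0.37 (adjusted p = 0.0268), and Agap1, 52603 bases from Asb18, by 0.31 (adjusted p = 0.0183). Of all 18 neighbours, 4 rose, 3 fell and 11 were not called, where 40.5% of all genes tested were called. Nothing is read from that count, and not all of those 11 are named here.

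The Asb genes outside the muscle set were mostly low in these hearts. Of 9, Asb9, Asb16 and Asb17 stayed at or under 0.241 FPKM in every library and were not tested. Of the 6 tested, 2 fell in CKO_GFP and 4 were not called, with a median of -0.04. That count was 1 with no filter, with 2 groups fitted alone and when any 1 of 5 libraries (each floxed library, or replicate 2 or 3 of CKO_GFP) was left out. Asb4 fell from 2.94 to 0.895 FPKM (-1.31, adjusted p = 2.82e-05) and rose with NAT10 (0.99, adjusted p = 0.000509), and Asb13 fell from 2.94 to 2.10 FPKM (-0.41, adjusted p = 0.0344). Asb1 (-0.03, adjusted p = 0.820), Asb3 (-0.01, adjusted p = 0.95), Asb6 (0.14, adjusted p = 0.201) and Asb7 (-0.06, adjusted p = 0.744) were not called.

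Of 8 genes listed for the cullin 5 ligase core, 1 rose in CKO_GFP and 7 were not called, with a median of -0.06. Under read-sum scaling or limma-voom 2 were called. Cul5 read 7.20 FPKM in the floxed control and 6.53 in CKO_GFP (adjusted p = 0.372), Elob 59.2 and 65.1 (adjusted p = 0.257), Eloc 14.6 and 12.5 (adjusted p = 0.165) and Rnf7 47.0 and 42.7 (adjusted p = 0.209). Arih2, the RBR ligase that works with neddylated cullin 5, rose from 7.04 to 11.9 FPKM (0.70, adjusted p = 8.89e-05) and fell again with NAT10 (-0.67, adjusted p = 0.000273) and G641E (-0.64, adjusted p = 0.000358). In K209A against NAT10 hearts, 5 of the 8 were called. Arih2 (0.77, adjusted p = 4.52e-05), Cand1 (0.32, adjusted p = 0.00317) and Cul5 (0.43, adjusted p = 0.00715) rose, and Rnf7 (-0.31, adjusted p = 0.0105) and Nedd8 (-0.33, adjusted p = 0.0230) fell. Of 17 other SOCS box genes, 7 rose and 2 fell in CKO_GFP, with a median of 0.23. Those 9 calls became 4 without replicate 3 of the floxed control or with 2 groups fitted alone, and 6 with no filter, without replicate 2 of the floxed control or without replicate 1 of CKO_GFP. Wsb2 rose by 0.42 (adjusted p = 0.00107), Wsb1 by 0.51 (adjusted p = 0.00259), the cytokine signalling inhibitor Socs2 by 0.57 (adjusted p = 0.00472) and Spsb2 by 1.14 (adjusted p = 0.00503).

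Transcripts of 8 proteins known as Asb substrates did not move one way, and protein levels were not measured. In CKO_GFP, 2 rose, 1 fell and 5 were not called, with a median of 0.14. The 3 calls became 5 under read-sum scaling or limma-voom and 2 with no filter, with 2 groups fitted alone or without floxed replicate 1, floxed replicate 2 or CKO_GFP replicate 2. Des, the desmin gene and an Asb2 substrate, rose from 482 ± 22.1 to 1124 ± 329 FPKM (1.17, adjusted p = 0.000304), while Asb2 was 2.80-fold lower, and with NAT10 it fell back to 482 FPKM (-1.18, adjusted p = 0.000540). Flnc, the muscle filamin, rose by 0.56 (adjusted p = 0.0377). Bik, the Asb11 substrate, fell from 5.95 to 2.65 FPKM (-1.03, adjusted p = 0.000263). Tbk1, reported as a substrate of ASB8, differed by 0.20 (adjusted p = 0.223).

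Other muscle ubiquitin ligase genes were also mostly lower. Of 17, 13 fell in CKO_GFP, 1 rose and 3 were not called, with a median of -1.53. The kelch-type cullin 3 adaptor Klhl33 fell by 2.97 (adjusted p = 4.88e-08), Rnf207 by 2.72 (adjusted p = 6.52e-07), the F-box gene Fbxl22 by 2.84 (adjusted p = 2.28e-06) and Klhl31 by 2.03 (adjusted p = 1.58e-05). With NAT10, 14 of the 17 rose. In CKO_K209A against CKO_GFP, 1 rose, 3 fell and 13 were not called.

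**Figure D4:**
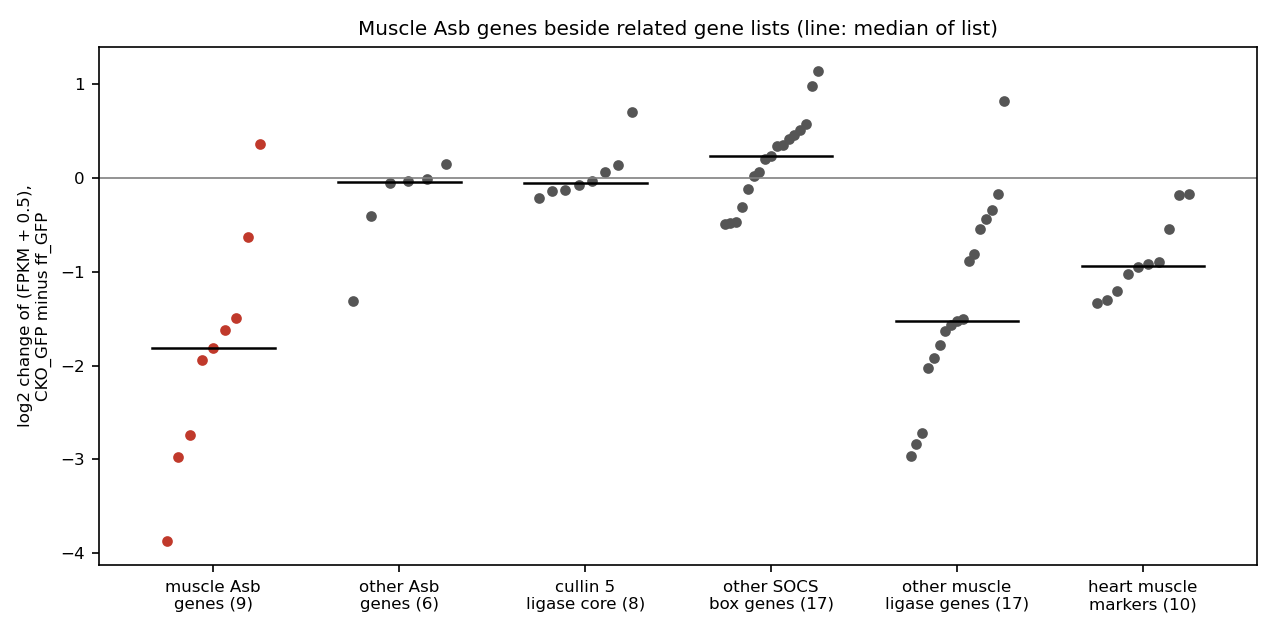
Log2 difference of FPKM + 0.5, CKO_GFP minus ff_GFP, for each tested gene of 6 lists, with a line at the median of each list. The muscle Asb genes have a median of -1.81, the other muscle ligase genes -1.53, the heart muscle markers -0.94, the cullin 5 ligase core -0.06 and the other Asb genes -0.04.

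Markers of heart muscle cells moved with the Asb genes. Of 10, 8 fell in CKO_GFP, with differences from -1.33 to -0.18 and a median of -0.94. Tnni3, Myl2, Myh6 and Pln were among those that fell (adjusted p = 9.25e-07, 8.76e-06, 2.20e-05 and 5.25e-05). Asb2, Asb5, Asb10, Asb12, Asb14, Asb15 and Asb18 all lay below the lowest of these markers, and Asb8 lay inside their range. With NAT10, 7 of the 10 markers rose (median 0.66), and in CKO_K209A against CKO_GFP 4 fell (median -0.29). Fibroblast markers moved the other way, with 5 of 6 rising in CKO_GFP and summed levels of 337 to 386 FPKM in the floxed control, 630 to 826 in CKO_GFP and 736 to 779 in CKO_K209A. Of 5 endothelial markers, 4 fell in CKO_GFP (Tie1 by 0.49, adjusted p = 0.00147) and 4 rose with NAT10, with sums of 283 to 296 FPKM in the floxed control and 203 to 249 in CKO_GFP. The 4 calls became 1 with 2 groups fitted alone and 2 under read-sum scaling. Of 5 mural markers, Acta2 fell by 1.82 (adjusted p = 0.00188), Myh11 fell by 0.59 (adjusted p = 0.0171) and Tagln rose by 0.77 (adjusted p = 0.0370), and without replicate 2 of CKO_GFP the number of calls was 1. The mural sum was 541 to 684 FPKM in the floxed control and 307 to 415 in CKO_GFP. Of 5 macrophage markers, Cd68 rose by 0.94 (adjusted p = 0.000503) and C1qa by 0.96 (adjusted p = 0.0146), and the number of calls was 1 without floxed replicate 1 or CKO_GFP replicate 1. The part of any of these marker lists in the levels of the Asb genes was not tested.

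The 16 skeletal muscle markers summed to 17.3 to 21.8 FPKM in the floxed control and 48.8 to 71.6 in CKO_GFP, and that sum is mostly Casq1, a calsequestrin, which rose from 15.6 to 56.7 FPKM (1.82, adjusted p = 0.000339). The other 15 summed to 3.48 to 3.71 FPKM in the floxed control and 1.25 to 2.78 in CKO_GFP. Tnni2 fell from 2.38 to 0.0876 FPKM (-2.30, adjusted p = 5.40e-05), Tnnt3 (0.63, adjusted p = 0.0970) and Mylpf (0.01, adjusted p = 0.979) were not called, and 13 of the 16 stayed under 0.5 FPKM in every CKO_GFP library. The 5 atrial markers summed to under 1 FPKM in each floxed library, 1.52 to 3.10 in CKO_GFP, up to 10.5 in CKO_K209A and 1.57 to 60.6 in CKO_G641E, where Myl7 alone read 49.3 FPKM in 1 library.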

How the data were processed

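RNA was measured in 15 mouse heart libraries, 3 in each of 5 groups taken from the sample labels. The authors deposited a table of FPKM per gene (coordinates on GRCm38). The submitters' processing notes name HISAT2 2.0.5, featureCounts 1.5.0-p3 and DESeq2 1.20.0, with no roles. Per the labels' protocols, poly-A RNA was selected. All deposited FPKM values came out as whole reads (within 0.05 reads) once a library size per column was solved from the low values. The library size behind the FPKM was 0.908 to 1.13 times the sum of reads in genes, so the values carry a scaling between libraries beyond read totals. That ratio was lowest in the floxed control (0.908 to 0.933) and highest in CKO_K209A (1.08 to 1.13). Depth was 13218352 to 15912700 reads per library.

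The 15321 genes that reached 0.5 FPKM in 3 or more libraries were tested with limma 3.58.1 in R 4.3.3 on log2(FPKM + 0.5), all 5 groups in 1 model (10 residual degrees of freedom, mean-variance trend), with Benjamini-Hochberg adjustment and calls under 0.05. The test was run on simulated data first. The members and lists were chosen with earlier results of these data known. Text names all members, every other Asb gene and up to 4 genes per list by smallest adjusted p in CKO_GFP minus ff_GFP. It also names the 3 nearest profiles, every called chromosome neighbour and some of the others. Cand1 and Nedd8 are named outside this rule, for their calls in K209A minus NAT10. Cul5 and Spcs3 were added after their values were seen. Genes are GENCODE M21, whose coordinates matched the table for all 9 members. Alternatives were other pseudocounts and filters, scaling to read sums, quantile normalization, limma-voom on recovered reads, a replicate block, 2 groups fitted alone and each library left out.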

Additional observations from a re-analysis of the deposited data

How the results depend on the processing

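The 8 members called lower in CKO_GFP than in ff_GFP were called in all 15 alternatives, and no member called in the main test changed sign in any. Of 945 alternative log2 values of members, 877 moved by less than the replicate spread and 68 by more, mostly for Asb10, Asb14, Asb15 and Asb18. For these genes the larger moves came with another pseudocount, with voom or with 1 library left out. Asb11 was called higher in CKO_GFP under scaling to read sums, under voom and without replicate 1 of CKO_GFP. With 2 groups fitted alone, calls over all genes were 2355 for NAT10 minus CKO_GFP (4776 in the main fit), 2703 for G641E minus CKO_GFP (4793), 207 for NAT10 minus ff_GFP (378), 0 for G641E minus NAT10 (8) and 9 for K209A minus CKO_GFP (1215), where 0 members were called (3). G641E minus NAT10 gave 4 calls with a pseudocount of 0.1 or read-sum scaling, and 5 with a 1 FPKM filter or voom. In NAT10 minus ff_GFP, 0 members (Asb5 in the main fit) were called without a filter or with read-sum scaling. Leaving out 1 library gave 427 to 1650 calls in K209A minus CKO_GFP (427 and 532 without replicates 1 and 2 of CKO_K209A), 0 to 3 in G641E minus NAT10, and 92 to 286 in NAT10 minus ff_GFP with 0 to 1 members. The causes were not tested.

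Scaling to read sums moved the median of all genes in CKO_GFP minus ff_GFP to 0.12 and the share of calls that were higher from 48.8% to 64.8%. That share went from 27.4% to 67.1% in K209A minus CKO_GFP, from 48.9% to 63.7% in K209A minus NAT10 and from 32.0% to 70.9% in NAT10 minus ff_GFP. Same-numbered libraries mostly did not deviate together, with a median r of 0.0086 over 30 pairs against 0.0048 for pairs with other numbers. Some pairs did: r was over 0.1 in 4 of the 30, in a range of -0.15 to 0.36. With the replicate block, calls over all genes in CKO_GFP minus ff_GFP were 6127 (6212 without it), and the block changed no member's call. Depth limits Asb15 in CKO_K209A, at 3 to 5 reads per library.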
